A study of Mus musculus with 4 samples.

Results

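Arhgap15, Dock2, Dock10, Vav1, Rac2 and Elmo1, 6 of the 32285 genes counted, encode regulators or a member of the Rac family of small GTPases that are best known from white blood cells. They were read in tumours of CT26, a mouse colon carcinoma line that grows in its own strain, BALB/c. The genes were selected on their known place in leukocyte Rac signalling and on the RNA level of Arhgap15 by genotype in these data. The RNA differences between genotypes given here are therefore descriptions. The cells injected under the skin of BALB/c hosts were CT26 lacking Sun1 (Sun1_KO) or CT26 with Sun1 intact (Sun1_WT), and tumours of both kinds were taken on day 14. The edit thus lay in the injected cells, and the leukocytes of the tumours came from the hosts. The labels do not say whether a line came from 1 clone, how many animals were pooled, or which part of Sun1 was removed.

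A small GTPase of the Rac family is active while it holds GTP and then drives actin assembly, migration and phagocytosis. Guanine nucleotide exchange factors (GEFs) load it with GTP, and GTPase-activating proteins (GAPs) end the signal by speeding hydrolysis. Some GEFs of the DOCK family work as a complex with an ELMO adaptor. Rac2 is the Rac protein of blood cells, while Rac1 is made almost everywhere, and a carcinoma cell is generally not counted among the cells that use the leukocyte versions.

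RNA and open chromatin were read from the same nuclei, with 1 library of each kind per genotype. There was no replicate and no test between the genotypes could be made, so every interval below is a 95% interval for counting error only. The Sun1_KO library kept 2172 nuclei and the Sun1_WT library 3345. Tumour-like nuclei carried Hmga2, at least 3 of 8 tumour markers, no UMI (counted RNA molecule) of the leukocyte gene Ptprc and fewer than 3 markers each of myeloid and lymphoid cells. There were 854 of them in Sun1_KO and 1882 in Sun1_WT, with median depths of 14868.5 and 15466 UMIs. Myeloid-like nuclei numbered 284 in Sun1_KO and 305 in Sun1_WT, at 4209.5 and 4537 UMIs, and lymphoid-like nuclei 171 in Sun1_KO and 144 in Sun1_WT, at 2468 and 2672.5 UMIs. Another 580 Sun1_KO and 727 Sun1_WT nuclei with tumour and leukocyte markers together were kept apart as mixed. Mitochondrial transcripts made up a larger share in Sun1_KO in each class, 11.1% against 6.89% in tumour-like, 9.05% against 5.45% in myeloid-like and 8.94% against 3.68% in lymphoid-like nuclei. The RNA libraries had 12 barcodes in common. Sun1 itself stood at 59.2 UMIs per 1000000 (CPM, per total without mitochondrial genes) in Sun1_KO and 102 CPM in Sun1_WT tumour-like nuclei.

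The regions over the first promoters of Arhgap15, Dock2, Dock10, Vav1 and Elmo1 were open in leukocyte nuclei and nearly closed in tumour-like nuclei. The second promoter of Arhgap15, whose values are given further on, lacked this contrast. RefSeq promoter windows of the build GRCm38.p6, from 250 bases before to 50 after a start site, were at hand for 5 of the 6 genes. Each of the 5 has a window with the ETS-type motif AGGAAGTG, the letters of which were picked after the sequences had been read and were searched on both strands (CACTTCCT on the other). Such a window is found for 4.68% of the 27025 genes covered, and 4.07% of the 32851 windows hold it. Because the letters were picked from these sequences, the match in all 5 genes was fixed beforehand. The shares therefore say only how common the letters are and are no comparison for the members. The first window of Arhgap15 (chr2:43748574-43748873, plus strand), its second window, which starts an alternative transcript (chr2:43787105-43787404, plus strand), that of Dock2 (chr11:34783856-34784155, minus strand) and the first of Elmo1 (chr13:20090257-20090556, plus strand) are given 5′ to 3′ with the motif in capitals, to show that only the first Arhgap15 window shares it with the others.
Arhgap15 first window: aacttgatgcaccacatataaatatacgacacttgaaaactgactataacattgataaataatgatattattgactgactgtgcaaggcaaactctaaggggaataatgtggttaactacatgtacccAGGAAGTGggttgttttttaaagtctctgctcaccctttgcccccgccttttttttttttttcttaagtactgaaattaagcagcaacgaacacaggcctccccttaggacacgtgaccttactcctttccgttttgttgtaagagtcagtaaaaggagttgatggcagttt
Arhgap15 second window: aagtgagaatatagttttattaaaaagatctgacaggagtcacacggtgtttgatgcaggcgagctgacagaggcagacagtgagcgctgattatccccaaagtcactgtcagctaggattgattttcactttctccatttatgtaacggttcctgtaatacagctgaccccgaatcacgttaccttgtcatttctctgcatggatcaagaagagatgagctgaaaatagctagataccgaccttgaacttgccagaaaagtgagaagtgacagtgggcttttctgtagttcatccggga
Dock2 window: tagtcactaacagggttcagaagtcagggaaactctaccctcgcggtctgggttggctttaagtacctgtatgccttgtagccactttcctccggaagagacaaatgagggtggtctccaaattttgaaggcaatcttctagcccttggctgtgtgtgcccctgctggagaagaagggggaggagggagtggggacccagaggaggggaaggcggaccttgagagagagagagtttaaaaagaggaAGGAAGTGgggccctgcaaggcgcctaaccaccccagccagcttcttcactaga
Elmo1 first window: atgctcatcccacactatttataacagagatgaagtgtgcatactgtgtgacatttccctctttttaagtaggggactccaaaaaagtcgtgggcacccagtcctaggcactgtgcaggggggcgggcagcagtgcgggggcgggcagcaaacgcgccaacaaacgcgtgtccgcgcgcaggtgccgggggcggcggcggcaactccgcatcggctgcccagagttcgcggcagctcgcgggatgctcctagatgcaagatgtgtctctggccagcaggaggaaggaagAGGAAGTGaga
The motif began 122 bases before the start site in Arhgap15, 4 bases before it in Dock2 and 39 bases after it in Elmo1. In Vav1 it began 10 bases before the start site and in the second window of Dock10 23 bases before the start. A match of letters is a description and shows no binding.

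Arhgap15 encodes a GAP for Rac proteins, a brake on the pathway. In tumour-like nuclei it had 399 UMIs in Sun1_KO, or 32.1 CPM (29.0 to 35.4), and 131 UMIs in Sun1_WT, or 4.44 CPM (3.71 to 5.27). The log2 ratio of Sun1_KO over Sun1_WT was 2.85 (2.56 to 3.15), which is 7.21-fold. In this class 4 of the 12125 genes with at least 100 summed UMIs had a larger ratio. The genes were selected in part on this RNA level, so the rank is a description. Of the members, 3 passed that minimum. A ratio of 2-fold or more upward was found for 1 of them, Arhgap15, and downward for 1, Elmo1. Among all genes of the class 2.05% reached 2-fold upward and 2.68% downward, with a median log2 ratio of 0.12. These are 249 and 325 genes, and 165 and 469 with TMM scaling, which moves the median by -0.12.

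The gene was read in 174 of 854 Sun1_KO tumour-like nuclei, 20.4% (17.7 to 23.2), and in 72 of 1882 Sun1_WT ones, 3.83% (3.01 to 4.79). After each nucleus was thinned to 2000 UMIs, the shares were 5.62% in Sun1_KO and 0.919% in Sun1_WT, with 18 and 32 shallower nuclei left out. Lymphoid-like nuclei, which make the gene, had it in 94.7% of Sun1_KO and 95.8% of Sun1_WT nuclei despite their lower depth. In Sun1_KO 91 nuclei had 2 or more UMIs and 20 had 5 or more, and in Sun1_WT 27 had 2 or more and 5 had 5 or more. Nuclei with the gene held 2.29 of its UMIs on average in Sun1_KO and 1.82 in Sun1_WT.

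**Figure D1:**
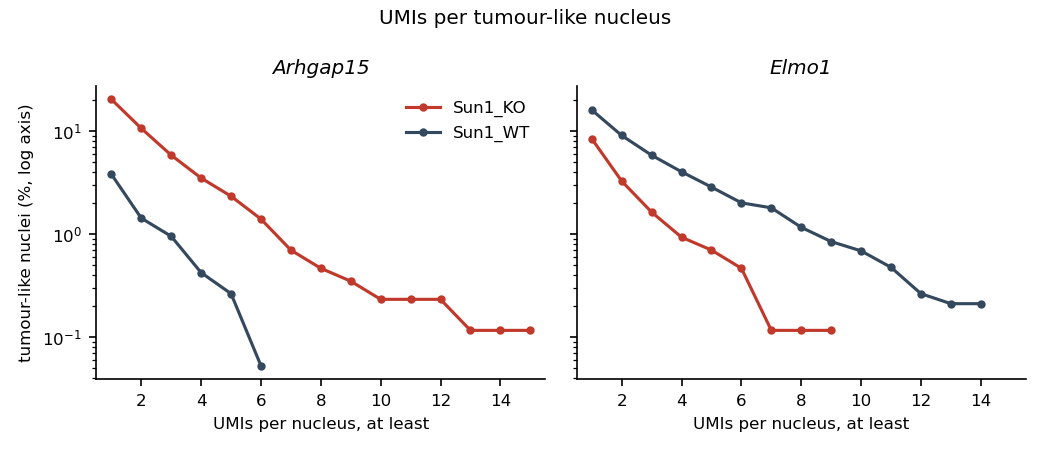
Share of tumour-like nuclei (percent, log axis) with at least the number of UMIs on the horizontal axis, for Arhgap15 and Elmo1, in Sun1_KO (red) and Sun1_WT (dark blue). For Arhgap15 the Sun1_KO line lies above the Sun1_WT line, from 20.4% and 3.83% at 1 UMI, and for Elmo1 it lies below, from 8.43% and 16.05%.

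The Arhgap15 difference was present in shallow and deep nuclei alike. In 3 equal groups of each library by depth, shallow to deep, its level was 34.0, 34.9 and 29.8 CPM in Sun1_KO and 6.32, 4.64 and 3.70 CPM in Sun1_WT. Nuclei with a UMI of Mki67 or Top2a, which mark dividing cells, held 30.0 CPM in Sun1_KO and 4.21 CPM in Sun1_WT. Nuclei with neither held 37.5 CPM in Sun1_KO and 5.002 CPM in Sun1_WT. With the tumour gate narrowed to nuclei without any UMI of 14 myeloid and 22 lymphoid markers, 144 Sun1_KO and 404 Sun1_WT nuclei were left, and Arhgap15 stood at 28.9 CPM (21.9 to 37.3) in Sun1_KO and 3.49 CPM (2.13 to 5.39) in Sun1_WT.

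In leukocytes the levels of Arhgap15 lay far above those of tumour-like nuclei in both genotypes. Myeloid-like nuclei had 1459 CPM in Sun1_KO and 1210 CPM in Sun1_WT, a log2 ratio of 0.27 (0.18 to 0.36). Lymphoid-like nuclei had 2263 CPM in Sun1_KO and 1908 CPM in Sun1_WT, a log2 ratio of 0.25 (0.11 to 0.38). The myeloid-like level was 45.4 times the tumour-like one in Sun1_KO (40.8 to 50.8) and 272 times in Sun1_WT (228 to 328). Within lymphoid-like nuclei the ratio was -0.02 (-0.20 to 0.15) in T-like and 0.46 (0.25 to 0.68) in NK-like nuclei, of which there were 90 and 74 in Sun1_KO and 64 and 73 in Sun1_WT. Within myeloid-like nuclei it was 0.22 (0.12 to 0.33) where a C1q gene was read and 0.48 (0.26 to 0.69) where none was.

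**Figure D2:**
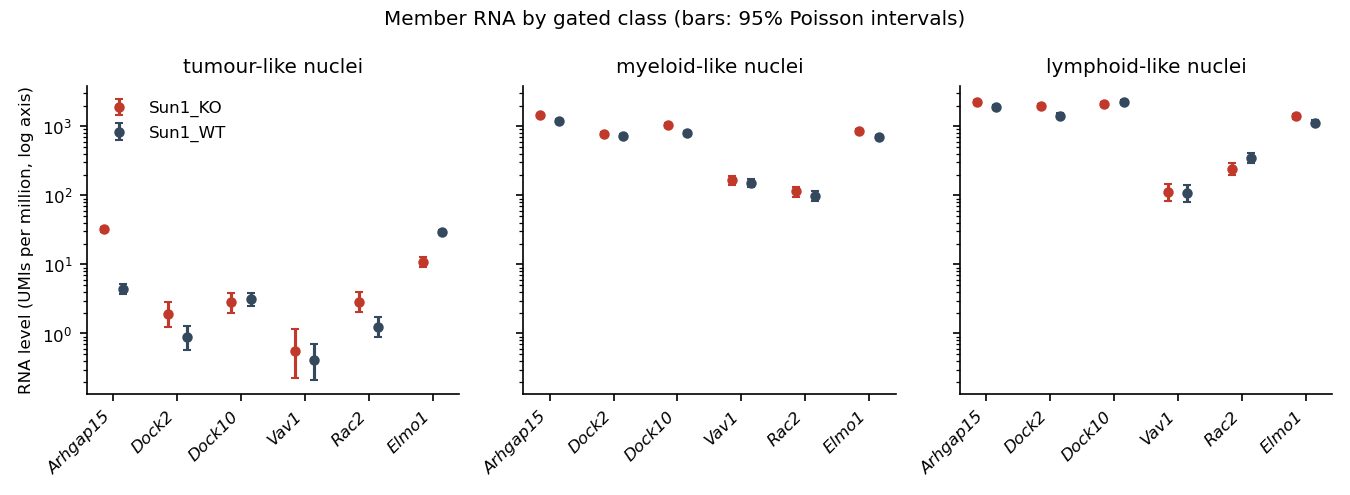
RNA level of the 6 members (CPM, log axis) in tumour-like, myeloid-like and lymphoid-like nuclei of Sun1_KO (red, left) and Sun1_WT (dark blue, right), 1 library each, with 95% Poisson intervals. Arhgap15 at 32.1 and 4.44 CPM and Elmo1 at 10.9 and 29.1 CPM part in opposite directions in tumour-like nuclei, while in leukocyte classes the points of a gene lie close together.

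Dock2 is the GEF that activates Rac in migrating leukocytes. It was scarce in tumour-like nuclei, with 24 UMIs in Sun1_KO, or 1.93 CPM (1.24 to 2.87), and 26 UMIs in Sun1_WT, or 0.881 CPM (0.576 to 1.29), below the minimum for the comparison over genes. The log2 ratio was 1.13 (0.27 to 1.99). In lymphoid-like nuclei it had 1949 CPM in Sun1_KO and 1434 CPM in Sun1_WT, a log2 ratio of 0.44 (0.29 to 0.59). Among nuclei with at least 3000 UMIs this ratio was 0.17 (-0.03 to 0.38), within counting error. NK-like nuclei showed a ratio of 0.73 (0.50 to 0.95) and T-like nuclei 0.16 (-0.05 to 0.37). Myeloid-like nuclei had 786 CPM in Sun1_KO and 736 CPM in Sun1_WT, a ratio whose interval spans no difference (0.09, -0.03 to 0.22).

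Dock10, a GEF of the DOCK family prominent in lymphocytes, was at 2.81 CPM (1.96 to 3.91) in Sun1_KO and 3.12 CPM (2.51 to 3.82) in Sun1_WT tumour-like nuclei. Its UMIs there numbered 35 in Sun1_KO and 92 in Sun1_WT, and the log2 ratio was -0.14 (-0.75 to 0.43). In myeloid-like nuclei it had 1049 CPM in Sun1_KO and 811 CPM in Sun1_WT, a log2 ratio of 0.37 (0.26 to 0.48). In lymphoid-like nuclei it had 2088 CPM in Sun1_KO and 2243 CPM in Sun1_WT, a ratio of -0.10 (-0.23 to 0.03). The myeloid-like class was thus the one in which Dock10 was higher in Sun1_KO beyond counting error.

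Vav1, a GEF that acts downstream of antigen and adhesion receptors, was near the limit of reading in tumour-like nuclei, with 7 UMIs in Sun1_KO and 12 in Sun1_WT, each in a different nucleus. Its level was 165 CPM in Sun1_KO and 153 CPM in Sun1_WT myeloid-like nuclei, and 112 CPM in Sun1_KO and 108 CPM in Sun1_WT lymphoid-like nuclei. No difference was detectable at this depth in any of the 3 classes, the log2 ratios being 0.51 (-1.12 to 1.93), 0.12 (-0.16 to 0.39) and 0.06 (-0.54 to 0.66).

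Rac2, the Rac GTPase of blood cells, had 36 UMIs in Sun1_KO, or 2.89 CPM (2.03 to 4.01), and 37 UMIs in Sun1_WT, or 1.25 CPM (0.883 to 1.73), in tumour-like nuclei. The log2 ratio was 1.21 (0.50 to 1.91). In lymphoid-like nuclei the order was turned round, with 242 CPM (199 to 291) in Sun1_KO and 350 CPM (297 to 411) in Sun1_WT, a log2 ratio of -0.53 (-0.90 to -0.17). Without the 5% deepest nuclei it was -0.33 (-0.73 to 0.07). T-like and NK-like nuclei gave -0.52 (-1.08 to 0.03) and -0.42 (-0.94 to 0.07). In myeloid-like nuclei it had 114 CPM in Sun1_KO and 96.9 CPM in Sun1_WT, a ratio of 0.23 (-0.11 to 0.58).

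Elmo1, the adaptor that joins DOCK proteins in taking up dying cells and in migration, went the other way from Arhgap15 in tumour-like nuclei. It had 135 UMIs in Sun1_KO, or 10.9 CPM (9.10 to 12.8), and 858 UMIs in Sun1_WT, or 29.1 CPM (27.2 to 31.1). The log2 ratio was -1.42 (-1.69 to -1.16), and 113 genes of the class had a lower one. At least 1 UMI was found in 72 Sun1_KO nuclei, 8.43% (6.65 to 10.5), and in 302 Sun1_WT nuclei, 16.05% (14.4 to 17.8). In thinned nuclei the shares were 2.15% in Sun1_KO and 4.16% in Sun1_WT. In leukocytes Elmo1 was slightly higher in Sun1_KO, at 847 CPM against 699 CPM in Sun1_WT for myeloid-like nuclei, a log2 ratio of 0.28 (0.15 to 0.40), and at 1390 CPM against 1132 CPM for lymphoid-like nuclei, a ratio of 0.30 (0.12 to 0.47). It was lower in nuclei with a Mki67 or Top2a UMI than in those without in both genotypes, at 9.25 against 14.99 CPM in Sun1_KO and at 23.1 against 43.5 CPM in Sun1_WT.

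No member was 2-fold apart in the leukocyte classes. That holds for 6 of 6 measured in myeloid-like nuclei, where 0.473% of 5283 genes reached 2-fold upward in Sun1_KO and 0.776% downward. It holds for 5 of 5 measured in lymphoid-like nuclei, where these shares were 1.1% and 2.06% of 2182 genes. The counts behind them were 25 and 41 genes in myeloid-like nuclei, or 17 and 58 with TMM scaling, and 24 and 45 in lymphoid-like nuclei, or 16 and 70 with TMM scaling. Vav1, with 99 UMIs there, missed the minimum.

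Ratios of 1 member to another within a nucleus class set their proportions in tumour-like nuclei beside those in leukocytes. Arhgap15 UMIs per Dock2 UMI came to 16.6 (11.0 to 26.3) in Sun1_KO and 5.04 (3.29 to 7.999) in Sun1_WT tumour-like nuclei. In myeloid-like nuclei this ratio was 1.86 in Sun1_KO and 1.64 in Sun1_WT, in lymphoid-like nuclei 1.16 in Sun1_KO and 1.33 in Sun1_WT, and in mixed nuclei 1.95 in Sun1_KO and 1.53 in Sun1_WT. Elmo1 UMIs per Dock2 UMI were 5.63 (3.62 to 9.08) in Sun1_KO and 33.0 (22.4 to 50.8) in Sun1_WT tumour-like nuclei, while the leukocyte classes of both genotypes lay between 0.713 and 1.08. Tumour-like nuclei thus held more Arhgap15 and more Elmo1 per Dock2 than leukocytes did, but this was not particular to these genes. Dock2 itself had 24 UMIs there in Sun1_KO and 26 in Sun1_WT. Vav1 per Dock2 was 0.292 (0.106 to 0.698) in Sun1_KO and 0.462 (0.212 to 0.948) in Sun1_WT tumour-like nuclei. Leukocyte classes had 0.0576 to 0.210. Dock10 per Dock2 was 1.46 in Sun1_KO and 3.54 (2.27 to 5.70) in Sun1_WT tumour-like nuclei. Leukocyte classes had 1.07 to 1.56. The Rac2 to Dock2 ratio in tumour-like nuclei was 1.5 (0.871 to 2.63) in Sun1_KO and 1.42 (0.839 to 2.45) in Sun1_WT. It differed little between genotypes and lay above the 0.124 to 0.244 of the leukocyte classes.

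The members seldom met in a tumour-like nucleus. Each was read in at most 20.4% of these nuclei in a library, so rare meetings follow from the low reading rates. Of the 174 Sun1_KO nuclei with Arhgap15, 6 (3.45%) also held Dock2, 4 (2.30%) Dock10, 16 (9.20%) Elmo1, 4 (2.30%) Rac2 and none Vav1. Of the 680 without Arhgap15, 14 (2.06%) held Dock2, 25 (3.68%) Dock10, 56 (8.24%) Elmo1, 29 (4.26%) Rac2 and 7 (1.03%) Vav1. Of the 72 Sun1_WT nuclei with Arhgap15, 1 held Dock2 and 15 (20.8%) held Elmo1, against 25 (1.38%) and 287 (15.9%) of the 1810 without. Nuclei with Arhgap15 were also deeper, at a median of 16090.5 UMIs against 14615 in Sun1_KO and 17066 against 15418.5 in Sun1_WT.

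Genes that mark leukocytes in general were read in tumour-like nuclei as well, and more in Sun1_KO. Besides Ptprc, which the gate holds at 0, the list has 11 genes with a median log2 ratio of 0.82, and 10 of them were higher in Sun1_KO. Their ratios reached from -0.10 (Fyb) to 2.08 (Itgal, with 29 UMIs in Sun1_KO and 16 in Sun1_WT). Of the 11, 4 were at least 2-fold higher and none 2-fold lower, where 2.05% and 2.68% of all measured genes were. The minimum of 100 UMIs was passed by 6 of the 11. Of the genes past 2-fold, Laptm5 and Lcp1 passed it, and Ikzf1 and Itgal did not. As point values, the Dock2 and Rac2 ratios of 1.13 and 1.21 lie inside the range of the 11 genes and that of Arhgap15 above it. The interval of Itgal (1.18 to 3.08) overlaps that of Arhgap15 (2.56 to 3.15). Summed over the 11 genes, the level was 72.2 CPM in Sun1_KO and 54.9 CPM in Sun1_WT. Fyb, a leukocyte adaptor, gave 32.5 CPM of this in Sun1_KO and 34.9 CPM in Sun1_WT. The 5 NK markers summed to 8.84 CPM in Sun1_KO and 1.25 CPM in Sun1_WT, beside 32.1 and 4.44 CPM for Arhgap15. The 14 myeloid markers summed to 98.3 CPM in Sun1_KO and 86.5 CPM in Sun1_WT. The part of leukocyte RNA in the Arhgap15, Dock2 and Rac2 values was not tested. In the narrowed gate Dock2 had 3 UMIs in each genotype, a log2 ratio of 1.51 (-1.39 to 4.41). Rac2 had 8 UMIs in Sun1_KO and 10 in Sun1_WT there, a ratio of 1.21 (-0.35 to 2.69). Both intervals held 0 at these few UMIs, while neither ratio was below that of the full gate. For Arhgap15 that gate gave a log2 ratio of 3.03 (2.30 to 3.86). Its nuclei hold no UMI of the 14 myeloid or 22 lymphoid markers. The NK markers Klrb1c and Ncr1 are among these, but Klre1, Klri2 and Eomes are not and may remain.

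**Figure D3:**
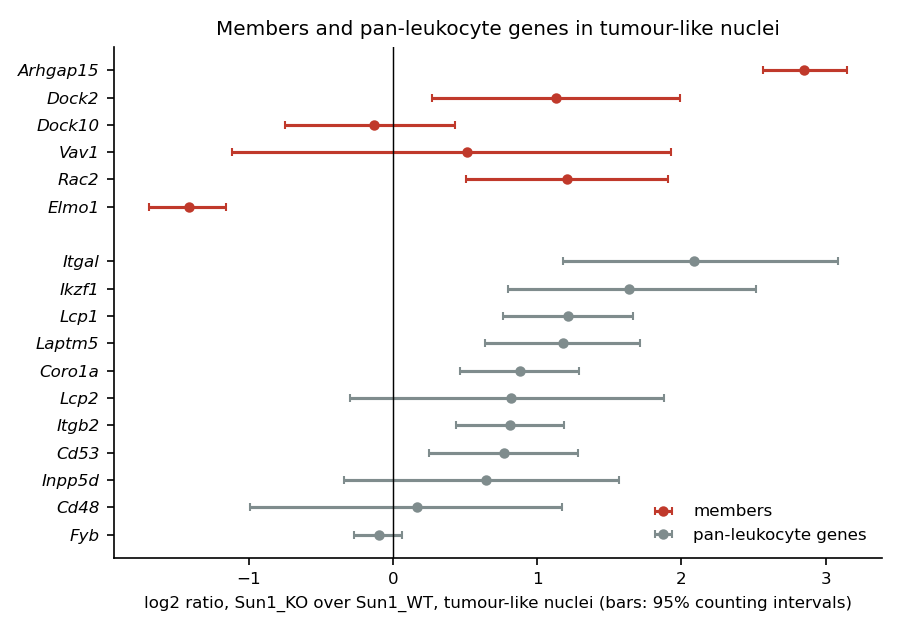
Log2 ratio of Sun1_KO over Sun1_WT in tumour-like nuclei for the 6 members (red) and the 11 pan-leukocyte genes without Ptprc (grey), with 95% counting intervals, 1 library per genotype. The point of Arhgap15 at 2.85 stands to the right of all pan-leukocyte points, though the interval of Itgal overlaps that of Arhgap15. Dock2 and Rac2 lie among the pan-leukocyte points, and Elmo1 at -1.42 stands to the left.

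The sum of the endothelial markers moved in the same direction as Elmo1. The 5 endothelial genes summed to 24.8 CPM in Sun1_KO and 36.1 CPM in Sun1_WT tumour-like nuclei. Most of this was Flt1, with 21.6 CPM in Sun1_KO and 28.8 CPM in Sun1_WT. It was read in 22.6% of Sun1_KO and 27.2% of Sun1_WT nuclei, so a single marker does not set endothelial cells apart here. Cdh5, Kdr and Emcn had 51, 26 and 35 UMIs in Sun1_WT and 1, 1 and 2 in Sun1_KO. The Sun1_WT UMIs of each lay in at most 0.16% of the nuclei. Pecam1 was read in 3.86% of Sun1_KO and 2.92% of Sun1_WT nuclei. Of the tumour-like nuclei, 10 in Sun1_KO (1.17%) and 22 in Sun1_WT (1.17%) held 2 or more of the 5 genes. Those nuclei held 0 Elmo1 UMIs in Sun1_KO and 5 in Sun1_WT. In nuclei without any endothelial marker Elmo1 was at 12.2 CPM in Sun1_KO and 31.3 CPM in Sun1_WT, a log2 ratio of -1.35 (-1.67 to -1.06), close to that of all tumour-like nuclei.

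Elmo1 in both genotypes and Arhgap15 in Sun1_KO varied with a list of 15 hypoxia-response genes, chosen with results known. Tumour-like nuclei of both genotypes were put into 3 equal groups, low, middle and high, by the summed level of the list. The high group held 21.2% of Sun1_KO and 38.8% of Sun1_WT nuclei. Elmo1 was at 3.46, 12.3 and 24.7 CPM in the low, middle and high group of Sun1_KO, and at 18.3, 27.4 and 37.5 CPM in those of Sun1_WT. It was higher with each step in both genotypes, and the log2 ratio between them was -2.37 (-3.16 to -1.72), -1.15 (-1.63 to -0.72) and -0.59 (-0.998 to -0.225). Arhgap15 was at 34.8, 40.3 and 13.8 CPM in the 3 groups of Sun1_KO and at 5.06, 3.54 and 4.88 CPM in those of Sun1_WT, where the intervals overlapped. Its ratio was 2.77 (2.27 to 3.33), 3.49 (2.99 to 4.06) and 1.51 (0.86 to 2.13), smallest in the high group. The sign of either ratio was kept in all 3 groups.

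**Figure D4:**
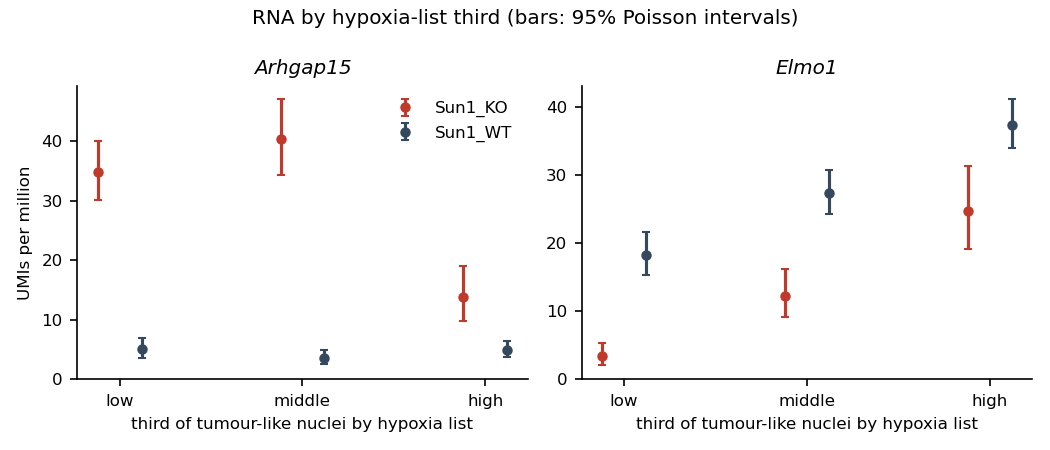
RNA level (CPM) of Arhgap15 and Elmo1 in 3 equal groups of tumour-like nuclei by the level of 15 hypoxia-response genes, Sun1_KO in red and Sun1_WT in dark blue, with 95% Poisson intervals. Elmo1 is higher with each group in both genotypes, while Arhgap15 in Sun1_KO is at 34.8 and 40.3 CPM in the low and middle groups and 13.8 CPM in the high one.

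Open chromatin was compared over regions with a peak in both libraries, within 1 kb of the gene, in counts per 1000000 over all such regions of the class (also CPM). Most recorded counts were even numbers (75.0% in Sun1_KO and 75.5% in Sun1_WT), so counts are not independent and these intervals are too narrow. Arhgap15, on chromosome 2 from 43748798 to 44395953, had 35 peaks in Sun1_KO and 18 in Sun1_WT, which made 17 shared regions of 15.2 kb in all. In tumour-like nuclei they held 4544 counts in Sun1_KO, or 66.9 CPM, and 3032 in Sun1_WT, or 23.4 CPM, a log2 ratio of 1.51 (1.45 to 1.58). Of 18401 genes, 12 had a larger ratio. Among the 6 members 1 was at least 2-fold more open and 1 at least 2-fold less open in Sun1_KO, against 0.571% and 0.435% of genes.

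All 17 shared Arhgap15 regions were more open in Sun1_KO tumour-like nuclei, 13 of them at least 2-fold, where 2.12% of 113504 single regions reached this in the whole genome. The largest signals lay inside the gene. Region chr2:43931387-43932290 had 9.71 CPM in Sun1_KO and 5.52 in Sun1_WT, and chr2:44152133-44153030 had 8.12 in Sun1_KO and 1.96 in Sun1_WT. Region chr2:43806037-43806950 had 5.11 in Sun1_KO and 0.688 in Sun1_WT, the largest ratio of the 17 (2.89, 2.55 to 3.24). The first of them had 0.299 CPM in Sun1_KO and 1.08 in Sun1_WT myeloid-like nuclei, and the second 0.448 in Sun1_KO and 0.269 in Sun1_WT, so both were nearly closed there, while the last had 8.37 in Sun1_KO and 9.54 in Sun1_WT. Regions outside the gene differed less than those inside it. In the 1 Mb after the gene 59 regions had a median log2 ratio of 0.08, and in the 1 Mb before it 9 had a median of 0.43, against 1.65 for the 17 inside. Of these, 5 regions after the gene (8.47%) and 1 before it (11.1%) were at least 2-fold more open, also above the share in the genome.

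The promoter region over the first Arhgap15 window had 96 counts in Sun1_KO tumour-like nuclei, or 1.41 CPM (1.14 to 1.72), and 26 in Sun1_WT, or 0.201 CPM (0.131 to 0.295). The log2 ratio was 2.79 (2.18 to 3.50). Leukocytes had far more there, at 20.5 CPM in Sun1_KO and 20.7 in Sun1_WT for myeloid-like nuclei and at 31.6 in Sun1_KO and 20.5 in Sun1_WT for lymphoid-like nuclei. The region over the second window lacked this excess in leukocytes, with 1.93 CPM in Sun1_KO and 0.719 in Sun1_WT tumour-like nuclei and 1.94 CPM in Sun1_KO and 1.21 in Sun1_WT myeloid-like nuclei. The first promoters of Dock2, Elmo1 and Vav1 gave smaller differences. Dock2 had 0.235 CPM in Sun1_KO and 0.162 in Sun1_WT, Elmo1 0.383 in Sun1_KO and 0.356 in Sun1_WT, and Vav1 0.809 in Sun1_KO and 0.557 in Sun1_WT tumour-like nuclei.

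Sun1_KO tumour-like nuclei with an Arhgap15 UMI had 2.28 CPM (1.59 to 3.18) at the first promoter, and those without had 1.16 (0.886 to 1.49). Over all 17 regions the values were 63.1 and 68.0 CPM. In Sun1_WT the nuclei with a UMI had 1.09 CPM (0.401 to 2.38) at the promoter and those without 0.161 (0.0986 to 0.249), and over the 17 regions 44.97 and 22.5. In nuclei without any myeloid or lymphoid marker the first promoter had 1.68 CPM (0.960 to 2.73) in Sun1_KO and 0.157 (0.0429 to 0.403) in Sun1_WT, and the 17 regions had 61.7 in Sun1_KO and 22.2 in Sun1_WT. The body of the gene was thus about as open in Sun1_KO nuclei with Arhgap15 RNA as in those without it.

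**Figure D5:**
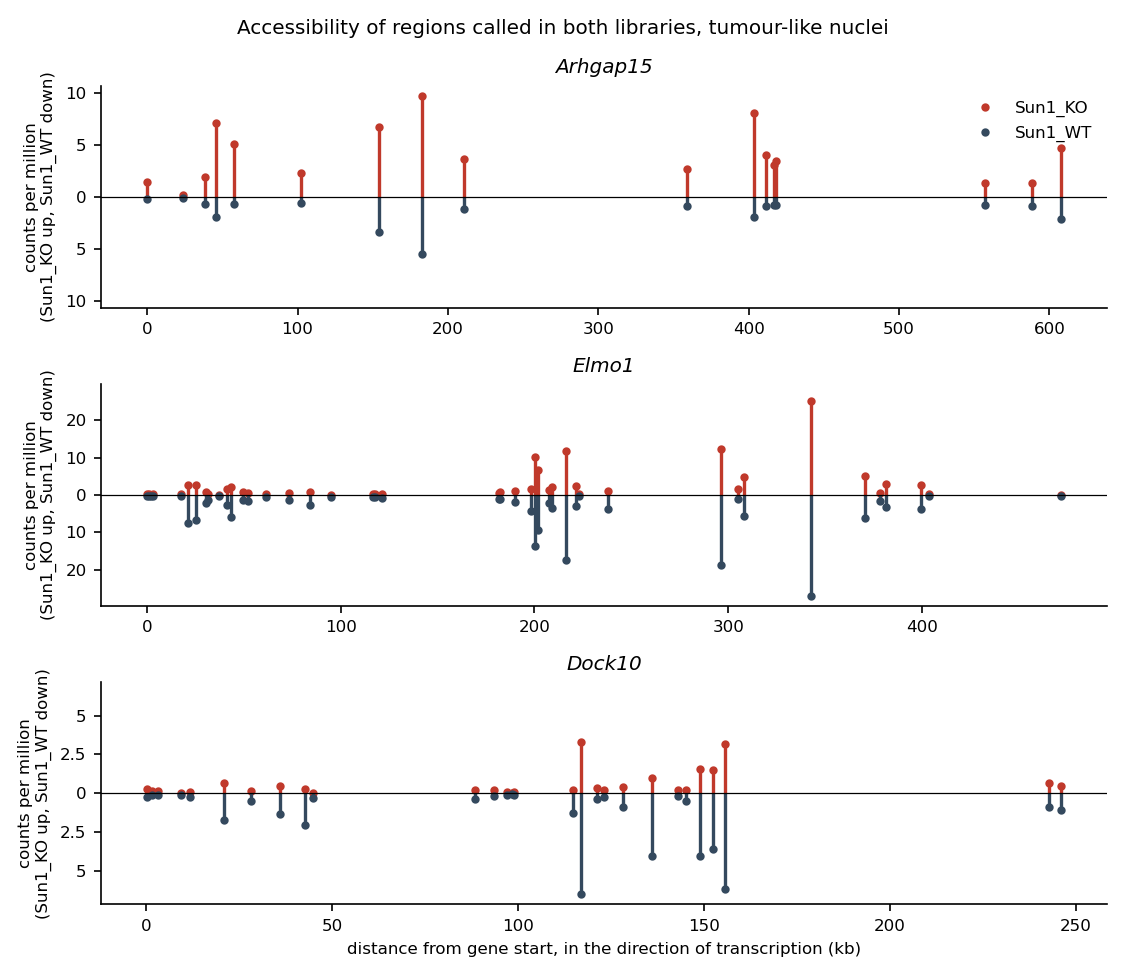
Level (CPM) of each region called in both libraries, by distance from the gene start (kb, in the direction of transcription), in tumour-like nuclei, Sun1_KO upward in red and Sun1_WT downward in dark blue. All 17 Arhgap15 regions are taller in Sun1_KO, while 38 of 43 Elmo1 regions and 24 of 28 Dock10 regions are taller in Sun1_WT.

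Elmo1, on chromosome 13 from 20090507 to 20608353, was less open in Sun1_KO tumour-like nuclei, with 111 CPM over 43 shared regions in Sun1_KO and 166 in Sun1_WT, a log2 ratio of -0.58 (-0.62 to -0.55). This fell just short of 1.5-fold, which 1.97% of genes passed in that direction. Of the 43 regions 38 were less open in Sun1_KO, 16 of them at least 2-fold, against 1.92% of single regions. The strongest region, chr13:20432945-20433831, had 25.1 CPM in Sun1_KO and 27.0 in Sun1_WT and was nearly equal. Region chr13:20111072-20111962, in the first part of the gene, had 2.75 CPM in Sun1_KO and 7.49 in Sun1_WT, a ratio of -1.44 (-1.68 to -1.22). Its values in myeloid-like nuclei were 22.4 CPM in Sun1_KO and 23.9 in Sun1_WT. In the 1 Mb before Elmo1 33 regions had a median ratio of -0.12, with 6 (18.2%) at least 2-fold less open, and in the 1 Mb after it 44 had a median of 0.03, with none. The first promoter was closed in tumour-like nuclei of both genotypes next to leukocytes, where it had 35.7 CPM in Sun1_KO and 37.2 in Sun1_WT myeloid-like nuclei. Within tumour-like nuclei it had 0.694 CPM (0.189 to 1.78) in Sun1_KO nuclei with an Elmo1 UMI and 0.354 (0.222 to 0.536) in those without, and in Sun1_WT 1.05 (0.675 to 1.57) with and 0.206 (0.129 to 0.313) without.

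Dock10, on chromosome 1 from 80501068 to 80758765, differed in open chromatin in tumour-like nuclei, where no difference in its RNA was detectable. Its 28 shared regions had 16.2 CPM in Sun1_KO and 37.4 in Sun1_WT tumour-like nuclei, a log2 ratio of -1.20 (-1.30 to -1.11), and 43 of 18401 genes had a lower one. Of the 28 regions 24 were less open in Sun1_KO and 14 at least 2-fold, against 1.92% of single regions in the genome. Region chr1:80602806-80603715 had 3.15 CPM in Sun1_KO and 6.15 in Sun1_WT, and region chr1:80641556-80642431 3.33 in Sun1_KO and 6.49 in Sun1_WT. In myeloid-like nuclei the first of these had 4.33 CPM in Sun1_KO and 9.68 in Sun1_WT and the other 10.2 in Sun1_KO and 16.7 in Sun1_WT, so both were lower in Sun1_KO there as well. Flanking regions differed less, with a median log2 ratio of -0.12 over 57 regions in the 1 Mb of lower coordinates and 0.05 over 32 in the 1 Mb of higher ones. Of these, 2 (3.51%) and 3 (9.38%) were at least 2-fold less open, also above the share in the genome.

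The remaining members had little open chromatin in tumour-like nuclei. Dock2 had 7.83 CPM in Sun1_KO and 8.30 in Sun1_WT over 16 regions (log2 ratio -0.08, -0.24 to 0.07), and Vav1 2.03 in Sun1_KO and 2.16 in Sun1_WT over 3 regions (-0.09, -0.40 to 0.21). Rac2 had 1.04 CPM in Sun1_KO and 1.37 in Sun1_WT over 2 regions, a ratio of -0.38 (-0.81 to 0.02). The stretches of 1 Mb on both sides of Rac2 on chromosome 15 had median ratios of -0.38 over 117 regions and -0.35 over 126. Differences in leukocytes were small, with log2 ratios from -0.11 to 0.08 in myeloid-like nuclei for the 6 members, where 0.112% of genes were at least 2-fold more open and 0.126% at least 2-fold less open. In lymphoid-like nuclei the ratios ran from -0.38 (-0.60 to -0.17) for Vav1 to 0.16 (-0.07 to 0.40) for Arhgap15, where 0.0973% and 0.644% of genes were past 2-fold.

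A list of 27 further Rac-pathway genes usually linked to leukocytes had 12 members measured in tumour-like nuclei, 2 at least 2-fold higher in Sun1_KO and none 2-fold lower, where 2.05% and 2.68% of all genes were. They were Fgd2, a GEF, at 8.52 CPM in Sun1_KO and 3.12 CPM in Sun1_WT (log2 ratio 1.45, 1.03 to 1.87), and Arhgap4, a GAP, at 10.3 CPM in Sun1_KO and 4.10 CPM in Sun1_WT (1.33, 0.96 to 1.70). The list median was 0.29 and that of all genes 0.12. A list of 46 widely used Rac-pathway genes had 41 measured, 1 at least 2-fold higher in Sun1_KO, none 2-fold lower and a median of 0.23, and 1 of 41 is near the share over all genes. That gene was Tiam1, a Rac GEF, at 31.0 CPM in Sun1_KO and 14.6 CPM in Sun1_WT (1.09, 0.89 to 1.29). Below the minimum, Prex2 had 6 UMIs in Sun1_KO and 81 in Sun1_WT (-2.40, -4.00 to -1.32). Chn2 had 1 in Sun1_KO and 10 in Sun1_WT (-1.56, -7.52 to 0.74). Elmo3, Vav3 and Cyfip2, also below it, were less than 2-fold apart. The 3 most abundant listed genes were the scaffold Iqgap1 (-0.21, -0.25 to -0.16), the WAVE complex subunit Nckap1 (0.03, -0.02 to 0.08) and the GAP Srgap2 (0.28, 0.22 to 0.33). Of the genes that passed the minimum in leukocytes, 27 and 33 of the lists in myeloid-like and 17 and 15 in lymphoid-like nuclei, none was 2-fold apart.

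Rac1, Dock1, Elmo2 and Vav2, widely made relatives of the members, differed less than Arhgap15 and Elmo1 did in tumour-like nuclei. They were picked after their values were seen. Rac1 had 191 CPM in Sun1_KO and 285 CPM in Sun1_WT, a log2 ratio of -0.57 (-0.64 to -0.51). Dock1, the DOCK partner of ELMO proteins in most tissues, had 281 CPM in Sun1_KO and 245 CPM in Sun1_WT (0.20, 0.14 to 0.26). Elmo2 had 39.3 CPM in Sun1_KO and 37.1 CPM in Sun1_WT (0.09, -0.07 to 0.24), and Vav2 had 27.4 CPM in Sun1_KO and 19.0 CPM in Sun1_WT (0.53, 0.33 to 0.72).

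The genes next to Arhgap15 gave 1 modest ratio and 1 that is poorly measured. Gtdc1, the next annotated gene on the side of higher coordinates, had 1145 UMIs in Sun1_KO and 2057 in Sun1_WT tumour-like nuclei, a log2 ratio of 0.40 (0.30 to 0.51). Kynu, on the other side, had 5 UMIs in Sun1_KO and 1 in Sun1_WT, a log2 ratio of 3.12 with an interval from 0.41 to 9.13. Of the 2 neighbours of Elmo1, Gpr141 and Aoah, the first had 6 UMIs in Sun1_KO and 9 in Sun1_WT and the other 12 in Sun1_KO and 22 in Sun1_WT, and neither ratio left counting error. The same held for Spdl1 beside Dock2, with 282 UMIs in Sun1_KO and 633 in Sun1_WT (0.08, -0.13 to 0.28), for Nyap2 beside Dock10 and for Adgre1 and Gm36738 beside Vav1 and Rac2. Trip10, on the other side of Vav1, had a ratio of 0.21 (0.02 to 0.39). Foxi1 and Sstr3, beside Dock2 and Rac2, had no UMI in tumour-like nuclei, and 1700016L21Rik, beside Dock10, had 1 in Sun1_WT.

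By centred log2 levels over the 6 combinations of class and genotype, the genes with the pattern closest to that of Arhgap15 among 12852 were Laptm5, Pik3cd, Irf8, Ms4a6b and Coro1a, at Euclidean distances of 1.33, 1.39, 1.45, 1.46 and 1.48. All 5 were far higher in both leukocyte classes than in tumour-like nuclei. In tumour-like nuclei Laptm5 had 4.74 CPM in Sun1_KO and 2.10 CPM in Sun1_WT, and the others were likewise higher in Sun1_KO, with a smaller ratio than that of Arhgap15. Among the members Rac2 (2.03) and Vav1 (2.17) were nearer to it than Dock10 (2.68), Dock2 (2.70) and Elmo1 (3.14).

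The authors' deposited table, whose nuclei are not named in the sources used here, holds Arhgap15 and Elmo1 and none of the other members. In the authors' deposited table the log2 fold change was 1.87 (standard error 0.297) for Arhgap15 and -0.18 (standard error 0.227) for Elmo1. The Elmo1 value is thus smaller than its error. The direction was read as Sun1_KO over Sun1_WT from the sign of Sun1 (-0.35).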

How the data were processed

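The labels' processing notes name Cell Ranger, Cell Ranger ARC, Seurat, Signac and FastQC and the mouse build mm10, with no versions given. The deposited RNA tables hold raw UMI counts per gene and nucleus, and the deposited accessibility tables hold counts per peak and nucleus, with peaks called by the authors for each library. The authors' deposited table of differences holds a mean signal, log2 fold changes, scores (standard error and statistic) and p-values, from DESeq2 per the file headers. Only its log2 fold changes and standard errors were used. No per-sample column was left unused (0).

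Nuclei needed at least 500 UMIs, 300 genes and at most 20% mitochondrial UMIs, which kept 2172 of 2404 in Sun1_KO (35471291 UMIs before filtering) and 3345 of 3455 in Sun1_WT (53707675 UMIs). Classes were gated by marker genes, no doublet caller was run, and nuclei of mixed profile were kept out. Levels are UMIs per 1000000 of the class without mitochondrial genes. Log2 ratios are Sun1_KO over Sun1_WT with 0.5 counts added, intervals are exact 95% Poisson, Clopper-Pearson or conditional binomial ones, and a gene counts as measured with at least 100 summed UMIs. UMIs of 1 nucleus are not independent cells, so the intervals are a lower limit on error. Peaks overlapping by at least 1 base were joined into regions.

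The text names the 6 members, list genes past 2-fold or among the 3 most abundant, neighbours, the 5 genes nearest to Arhgap15 in pattern, Sun1 and Ptprc. The relatives Rac1, Dock1, Elmo2 and Vav2, and single list genes and regions, were named after their values were seen. Members and lists were chosen with earlier results of these data known, and start from lists of an earlier analysis. Alternatives were other scalings (edgeR 4.0.16 TMM factors and median-ratio factors), gates, minimum counts, thinning to 2000 UMIs, binarised accessibility, and, added later, splits by endothelial markers, hypoxia genes and cycling genes, a higher Hmga2 minimum and removal of shared barcodes. Python 3.11.15, scipy 1.17.1 and R 4.3.3 were used, and the ratio code was tested on simulated data.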

Additional observations from a re-analysis of the deposited data

Results flagged for a closer look

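Rac2 and Elmo1 differed between the genotypes in opposite directions in different nucleus classes. With 1 library per genotype the difference between classes was not tested. Rac2 had a log2 ratio of Sun1_KO over Sun1_WT of 1.21 in tumour-like and of -0.53 in lymphoid-like nuclei. Elmo1 had a ratio of -1.42 in tumour-like nuclei, of 0.28 in myeloid-like and of 0.30 in lymphoid-like nuclei. The 95% counting interval left out 0 in these 5 values as reported, but not in every alternative. For Rac2 it held 0 in tumour-like nuclei without any myeloid or lymphoid marker (1.21, -0.35 to 2.69), in lymphoid-like nuclei without the 5% deepest (-0.33, -0.73 to 0.07) and in both classes after thinning. For Elmo1 it held 0 in both leukocyte classes after thinning (0.14, -0.07 to 0.36 and 0.20, -0.07 to 0.46). The tumour-like Rac2 value rests on 73 UMIs, under the minimum of 100.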

How the results depend on the processing

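No paired analysis was possible because each genotype had 1 library per assay. No replicate could be left out, for the same reason. Of 228 alternative values for the 18 member RNA ratios, 214 stayed within the counting interval of the main value and 14 moved outside it. In tumour-like nuclei Arhgap15 ran from 1.51 to 3.49 and Elmo1 from -2.37 to -0.59, each with its sign kept in 18 of 18 alternatives. Dock10 kept its sign in 9 of 15 and Vav1 in 11 of 15. By hypoxia group, low to high, Elmo1 was at -2.37, -1.15 and -0.59, and Arhgap15 at 3.49 in the middle and 1.51 in the high group. Elmo1 was at -1.80 in nuclei without any myeloid or lymphoid marker and at -1.10 after thinning to 2000 UMIs. Of 54 accessibility values 46 stayed and 8 moved. With binarised counts the tumour-like ratios were 1.44 for Arhgap15, -0.99 for Dock10 and -0.52 for Elmo1, and per nucleus they were 1.72, -0.99 and -0.37. Counts of genes past 2-fold rested on the minimum. At 20 summed UMIs 860 were higher and 627 lower in Sun1_KO in tumour-like, 266 and 255 in myeloid-like and 339 and 236 in lymphoid-like nuclei. At 500 these were 57 and 148, 4 and 9, and 1 and 13. TMM scaling gave 165 and 469 in tumour-like and 16 and 70 in lymphoid-like nuclei, and median-ratio scaling 16 and 70 in the lymphoid-like ones. In myeloid-like nuclei TMM gave 17 and 58, where the values as reported were 25 and 41. Depth limits Vav1, Dock2 and Rac2 in tumour-like nuclei, each with fewer than 100 UMIs over both libraries. The causes of these shifts were not tested.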
